A study of Mus musculus with 8 samples.

Results

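The genes described here encode nuclear subunits of 4 complexes of mitochondrial oxidative phosphorylation: complex I (NADH dehydrogenase), complex II (succinate dehydrogenase), complex III (the cytochrome bc1 complex) and complex V (ATP synthase). Members were the rows whose symbol was Nduf with a, b, c, s or v and a number, Sdh with a to d, or any Uqcr or Atp5 symbol. A member also needed an accepted estimate in both columns and at least 1 FPKM (a fragment count divided by transcript length and library size) in 1 of them. This gave 65 genes of 13602 tested in any of 3 tables, with 36 in complex I, 4 in complex II, 8 in complex III and 17 in complex V. There were 65 of them among 12344 genes tested in the female table, 63 among 11440 in the male and 60 among 11084 in the table named KI, and 60 members were in all 3. They were taken by symbol.

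RNA was sequenced from differentiating myoblasts of B6/129 mice, grown from sorted satellite cells (the stem cells of muscle) and differentiated for 24 h, to learn what UTX does in them. UTX, encoded by the X-linked gene Kdm6a, removes methyl groups from lysine 27 of histone H3. The 8 libraries formed 6 groups, and each table set 1 mutant column against 1 control column. The female wild-type (WT) library came from Pax7-CreER, Rosa26-Floxed-TdTomato mice, and the female knockout (KO) library from mice that carried UTX-Floxed in addition. Male WT and male KO were 1 library each, and their labels give no alleles beyond WT and KO of UTX. The KI and Ctrl-KI groups were female, with 2 libraries each that the table pools into 1 column per group, and the labels do not say what KI changes. In all groups the cells were sorted for the Cre-dependent reporter, with Cre driven by Pax7, and were grown with 20% serum and 2.5 µM 4-OH-tamoxifen. With 1 column per group, a difference within a table has no replicate check and no p-value.

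Oxidative phosphorylation makes most of the ATP of resting and enduring muscle. Complex I passes electrons from NADH to ubiquinone and complex II passes them from succinate, complex III hands them on to cytochrome c, complex IV reduces oxygen, and complex V uses the proton gradient built by complexes I, III and IV to make ATP. Complex II is encoded wholly in the nucleus, whereas the others combine nuclear subunits with a few made inside the mitochondrion. Respiratory genes are known to be induced as myoblasts leave the cell cycle and fuse, and several are known targets of the factors NRF1, GABPA, YY1 and the oestrogen-related receptors. Only transcripts of nuclear subunits are described here, and transcripts of the mitochondrial genome were not analysed here.

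Promoter sequence is shown first, because it is a feature of the members that the choice by symbol did not use. RefSeq promoter windows (GRCm38.p6, from 250 bases before to 50 after each gene's start) were found for 56 of the 65 members, 3 of them through a newer symbol. Each window was searched on both strands for 4 cores: CGCATGCG for NRF1, CCGGAAGT for GABPA, AAGATGGC for YY1 and TCAAGGTCA for the oestrogen-related receptors (ERR). One example per complex is printed 5′ to 3′ on the gene's strand, namely the member with the lowest mean ratio in both sexes whose window held a core. Capitals mark the matches. The windows are chr10:80249199-80249498 (plus strand) for Ndufs7, chr9:50603800-50604099 (minus) for Sdhd, chr10:80406772-80407071 (minus) for Uqcr11 and chr3:105959214-105959513 (minus) for Atp5f1, which RefSeq calls Atp5pb.
Ndufs7: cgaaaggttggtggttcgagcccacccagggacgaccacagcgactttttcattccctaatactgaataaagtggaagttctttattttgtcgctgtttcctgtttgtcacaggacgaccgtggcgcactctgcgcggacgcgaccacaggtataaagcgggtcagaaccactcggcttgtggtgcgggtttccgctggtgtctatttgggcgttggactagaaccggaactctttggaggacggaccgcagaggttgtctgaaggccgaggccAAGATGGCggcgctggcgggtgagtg
Sdhd: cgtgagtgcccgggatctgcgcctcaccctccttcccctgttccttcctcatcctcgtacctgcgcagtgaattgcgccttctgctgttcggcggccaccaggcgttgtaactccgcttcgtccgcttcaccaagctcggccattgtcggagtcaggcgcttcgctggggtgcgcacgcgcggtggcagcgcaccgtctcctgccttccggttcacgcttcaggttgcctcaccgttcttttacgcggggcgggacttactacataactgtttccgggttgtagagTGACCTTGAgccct
Uqcr11: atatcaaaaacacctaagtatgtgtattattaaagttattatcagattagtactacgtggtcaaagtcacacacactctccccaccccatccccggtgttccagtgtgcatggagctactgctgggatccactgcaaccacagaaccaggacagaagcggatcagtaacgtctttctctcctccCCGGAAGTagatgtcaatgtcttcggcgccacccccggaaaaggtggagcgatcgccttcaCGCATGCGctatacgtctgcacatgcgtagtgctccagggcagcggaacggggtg
Atp5f1: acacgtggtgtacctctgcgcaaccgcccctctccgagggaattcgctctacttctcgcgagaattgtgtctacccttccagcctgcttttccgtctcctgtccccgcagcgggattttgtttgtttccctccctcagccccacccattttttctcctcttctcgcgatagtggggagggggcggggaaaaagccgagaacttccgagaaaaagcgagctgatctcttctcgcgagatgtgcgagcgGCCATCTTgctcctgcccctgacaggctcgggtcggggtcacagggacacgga

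Counted from 1 at the 5′ end, the Ndufs7 window held the YY1 core at 275 to 282, after the start site. The Sdhd window held the ERR core on the other strand at 287 to 295. Uqcr11 carried a GABPA core at 185 to 192 and an NRF1 core at 246 to 253, which do not overlap. Atp5f1 carried the YY1 core on the other strand at 248 to 255, across its start. Over the members, 8 of 56 windows (14.3%) held the NRF1 core against 2.07% of 27025 genes, and 11 (19.6%) held the YY1 core against 3.19%. The GABPA core was in 4 windows (7.14%, against 4.31%) and the ERR core in 2, Sdhd and Atp5g3 (3.57%, against 0.466%). At least 1 core was found in 23 windows (41.1%), against 9.48% of all genes with a window. Those 27025 genes include genes that were not tested in these cells, so the shares are not matched for expression. These matches are letters in a window and not measured binding, and nothing in these data reports on binding.

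In the female table every member was lower in KO than in WT cells. The log2 ratio of KO over WT, formed after 1 FPKM was added to each value, had a median of -0.95 over the 65 members and ran from -1.43 for Ndufs7 to -0.47 for Ndufv3. The median over all genes of the table was -0.08, and 56.7% of all genes were below WT. By a 2-fold limit 27 members were lower and 0 higher, where 4.40% of all genes were that much lower and 4.49% that much higher. All 65 lay in the lowest 25.0% of the table's ratios (below -0.41). The count of 27 was 16 after the median of all genes was subtracted, 9 after each column was rescaled to TPM (each column made to sum to the same total) and 8 after genes of like transcript length were used as the reference, but in each of these settings all measured members stayed below WT. The members' FPKM summed to 9624 in WT and 4948 in KO, so the KO sum was 51.4% of the WT sum.

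The error that the files give is wide. The deposited confidence interval of a member spanned a median of 109% of its FPKM in WT females and 114% in KO females. The intervals of the 2 columns were apart for 0 of 65 members, against 0.899% of all genes, and for 53 members the KO value lay inside the WT interval. By these intervals no member was set apart from its control, as was so for nearly all genes of the table. Overlap of 2 intervals is not a test of a difference. The pattern in this table is one of many genes lying on the same side. In these bulk libraries, fewer cells of a kind and less of the transcript per cell cannot be told apart.

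**Figure D1:**
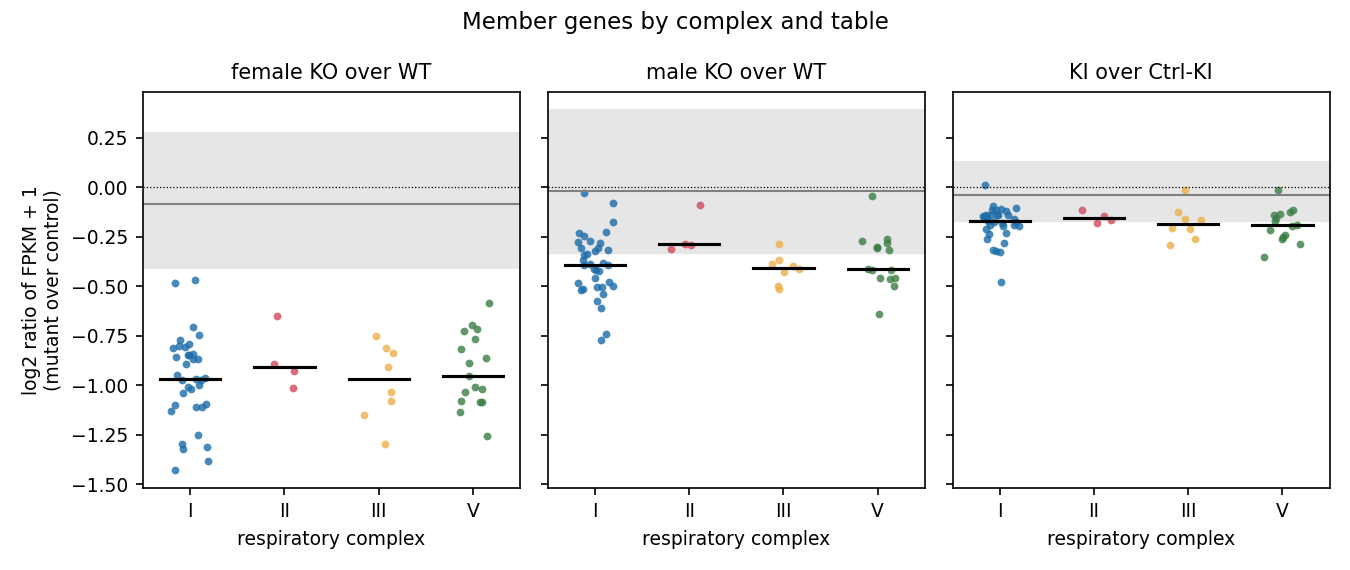
Log2 ratio of FPKM + 1 (mutant over control) of each member by complex, in the female KO, male KO and KI tables. Points are genes, black bars the median of a complex, the grey line and band the median and quartiles of all genes tested, and the dotted line no difference. The female members all lie under the band, and the male and KI members lie nearer to 0, where rescaling to TPM over loci with a symbol puts 4 male and 4 KI members at or above it.

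In the male table as deposited all 63 members were also below WT, by less, except that 4 of them (Ndufa1, Ndufa3, Sdhb and Atp5sl) were not below it once columns were rescaled to TPM over loci with a symbol. The male median was -0.39, with a range of -0.77 (Ndufs4) to -0.03 (Ndufa1), against a median of -0.02 over all genes and 51.6% of genes below WT. None of the 63 was 2-fold lower or higher, where 6.47% of all genes were 2-fold lower and 9.90% 2-fold higher. Rescaling to TPM over all loci moved the median of all genes to -0.70 and that of the members to -1.16, so that 57 were 2-fold lower, but relative to all genes the members were then at -0.46. The lowest 25.0% of male ratios (below -0.33) held 38 of the 63. The deposited intervals were wider here, at a median of 146% of a member's FPKM in WT and 147% in KO. They were apart for 0 members (0.865% of all genes), and the KO value of all 63 lay inside the WT interval. The summed FPKM of the members was 11707 for WT males and 8964 for KO males, or 76.6%.

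In the KI table as deposited the values were nearest to the control. Of 60 members 59 were below Ctrl-KI, with Ndufa3 as the exception, and after rescaling to TPM over loci with a symbol 56 were, with Ndufb3, Uqcrq and Atp5e as the further exceptions. The median was -0.17, from -0.48 (Ndufc2) to 0.01 (Ndufa3), against -0.04 over all genes, 57.4% of which were below Ctrl-KI. None was 2-fold lower or higher, against 0.893% and 3.86% of all genes. TPM over all loci shifted the median of all genes to -0.77 and put 28 members past 2-fold (median -0.99), yet relative to all genes the members were at -0.23. This table has the narrowest intervals, at a median of 37.9% of a member's FPKM in Ctrl-KI and 38.0% in KI, yet they were apart for 0 members while they were apart for 12.0% of all genes. The KI value lay inside the Ctrl-KI interval for 56 of 60. The lowest 25.0% of the table's ratios (below -0.17) held 30 of 60, and the summed FPKM was 10639 in Ctrl-KI and 9394 in KI, or 88.3%.

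**Figure D2:**
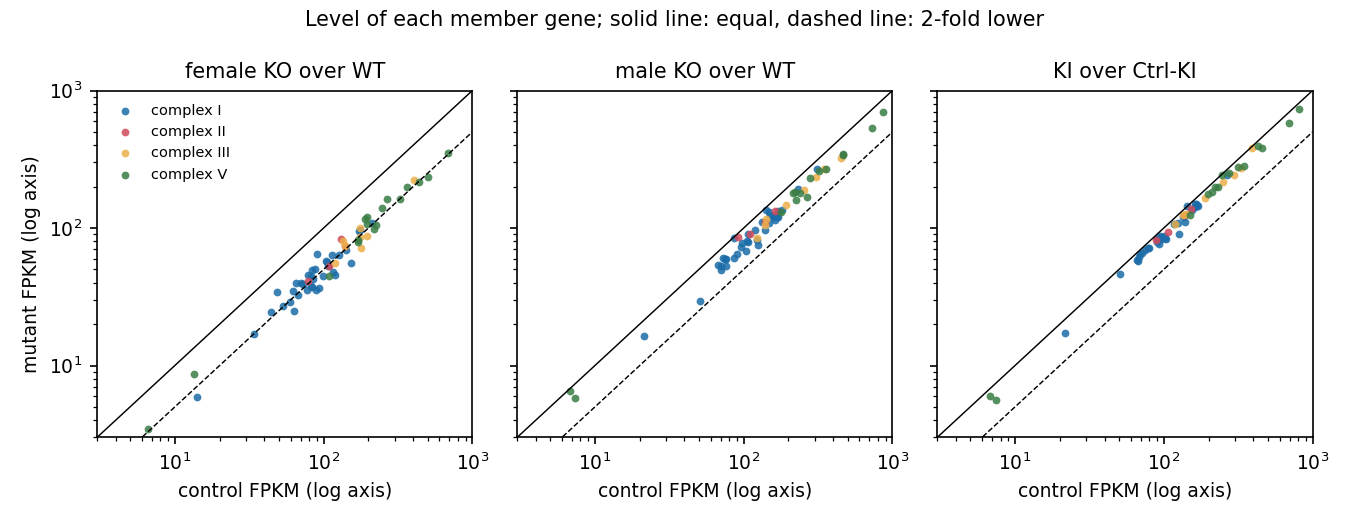
FPKM of each member in the control column (horizontal, log axis) and the mutant column (vertical, log axis) of each table, coloured by complex. The solid line marks equal values and the dashed line a mutant value 2-fold lower. Female points scatter about the dashed line from the weakest to the strongest gene, male points lie between the lines, and KI points lie close under the solid line, where rescaling to TPM over loci with a symbol puts 4 male and 4 KI genes on or above it.

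As deposited, the order of the tables held for most members. The female ratio was lower than the male ratio in 63 of 63 members and lower than the KI ratio in 60 of 60, and the male ratio was lower than the KI ratio in 53 of 60. With TPM over all loci the female table no longer came first: the medians were -0.78, -1.16 and -0.99 for the female, male and KI tables, and the female ratio was lower than the male one in 3 of 63 members and lower than the KI one in 11 of 60. With TPM over loci with a symbol these counts were 63 and 60. The tables do not hold the same loci: 0 of 23115 lacked a symbol in the female table, 5680 of 28603 in the male and 5971 of 28748 in the KI table. Relative to all genes, the medians with TPM over all loci were -0.87, -0.46 and -0.23, with the female table first. With 1 ratio per gene and sex, the difference between the sexes was not tested. Each sex of the KO has its own table, so a difference between sexes cannot be told apart from one between tables. Which member was lowest was shared only weakly: across 63 members the female and male ratios had a Pearson correlation of 0.25, and across 60 members the female and KI ratios one of 0.14 and the male and KI ratios one of 0.09. Over all genes in both tables the correlations were higher, at 0.53 (10482 genes), 0.34 (10041) and 0.46 (10245). These are descriptions over genes that share libraries. The control levels, in contrast, were ordered alike, with correlations of log2 level of 0.93 between female and male WT, 0.94 between female WT and Ctrl-KI and 0.997 between male WT and Ctrl-KI.

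Both sexes were put together in a limma fit with a mean-variance trend, in which the female and male ratios of 10525 genes were tested against 0. The error of a gene joins its own difference between the sexes (1 residual degree of freedom) with a variance borrowed from all genes (4.59 prior degrees of freedom). A gene's SE and p-value therefore rest mostly on the other genes. The mean ratio was below 0 for all 63 members tested, with a median of -0.65 and a range of -1.001 (Ndufs7) to -0.26 (Ndufa1). With Benjamini-Hochberg adjustment over all genes, 0 of 63 members passed 0.05 in either direction, as against 0.00% of all genes lower and 0.00950% higher (1 gene, Gt(ROSA)26Sor, the locus that carries the reporter). The smallest adjusted p of a member was 0.12, for Ndufa5. At an unadjusted p under 0.05, 46 of 63 members were lower, where 10.3% of all genes were. This count depended on the setting: it was 33 without the trend (9.77% of all genes), 13 with TPM over loci with a symbol (6.25%), 7 with no filter on level (4.00%) and 0 with TPM over all loci (5.67%). The p-values measure only the spread between these libraries, largely as pooled over genes, and the labels do not say whether the libraries came from separate animals.

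Complex I, the entry point of NADH, had a median ratio of -0.97 in female KO, -0.39 in male KO and -0.17 in KI cells. Of its 36 genes 14 were at least 2-fold lower in the female table. Its catalytic core subunits carry the flavin, the iron-sulphur clusters and the quinone site. Ndufs7, the core subunit whose iron-sulphur cluster hands electrons to the quinone, was the lowest member in females (mm9 chromosome 10, 79712197 to 79719537). Its level was 152 FPKM in WT and 55.9 in KO females, 123 and 82.5 in males, and 125 and 109 for Ctrl-KI and KI. The female KO value is the lowest of the 6, and its interval (24.4 to 87.4) still overlapped that of female WT (71.4 to 232). Over both sexes its mean log2 ratio was -1.001 ± 0.272 (SE, limma, adjusted p 0.138).

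Ndufv1, which binds NADH and the flavin, was 77.3 FPKM in WT and 35.7 in KO females, 67.5 and 53.8 in males, and 71.1 and 65.7 in Ctrl-KI and KI. Its female ratio of -1.09 was past 2-fold and its male and KI ratios of -0.32 and -0.11 were not. Ndufs1, the large iron-sulphur subunit of the same NADH-binding module, was 65.3 and 39.6 FPKM in female cells, 70.1 and 49.1 in males, and 65.9 and 58.1 for Ctrl-KI and KI. The female and male ratios of Ndufs1, -0.71 and -0.50, were closer to each other than those of Ndufv1. The core members Ndufs3, Ndufs8 and Ndufv2 had female ratios between -0.80 and -0.98 and male ratios between -0.25 and -0.52.

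The accessory subunits surround this core. Those named Ndufb and Ndufc, which sit in or on the membrane arm, had the lowest female median of the groups examined in complex I, at -1.07 over 12 genes, of which 7 were 2-fold lower. In males (-0.36) and KI cells (-0.17) they did not stand lower than the core subunits (-0.39 and -0.17). Ndufb8, a membrane-arm subunit, was 119 FPKM in WT and 45.2 in KO females, 170 and 134 in males, and 163 and 150 for Ctrl-KI and KI. Its ratio was -1.38 in females, near the lowest, but -0.34 and -0.12 in the other tables. Ndufb2, Ndufb6 and Ndufc1 showed the same split, with female ratios of -1.31, -1.30 and -1.32 and male ratios of -0.31, -0.18 and -0.38. Ndufc2 was the lowest member of the KI table, at 127 FPKM in Ctrl-KI and 90.9 in KI (log2 ratio -0.48), and its ratio was -0.96 in females and -0.28 in males.

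The Ndufa accessory genes had medians of -0.88, -0.38 and -0.19 (female, male, KI). Ndufa5, a subunit of the matrix arm, was 107 FPKM in WT and 53.0 in KO females, 126 and 74.7 in males, and 139 and 111 for Ctrl-KI and KI. It was low in both sexes, with a mean log2 ratio of -0.87 ± 0.21 (SE, limma, adjusted p 0.12), the member nearest to the threshold. Ndufs4 and Ndufs5, accessory despite their names, were low in both sexes too. Ndufs4, whose loss in mice gives a model of Leigh syndrome, was 44.2 FPKM in WT and 24.7 in KO females, 50.9 and 29.5 in males, and 51.0 and 46.2 for Ctrl-KI and KI. Its female and male ratios were nearly equal (-0.81 and -0.77), and its mean was -0.79 ± 0.21 (SE, limma, adjusted p 0.138). Ndufs5 had ratios of -1.25 and -0.61 and a mean of -0.93 ± 0.25 (SE, limma, adjusted p 0.136).

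At the other end stood Ndufa1 and Ndufv3. Ndufv3, an accessory subunit of the NADH-binding module, was 90.6 FPKM in WT and 65.0 in KO females, 70.4 and 52.6 in males, and 67.9 and 61.4 for Ctrl-KI and KI, with ratios of -0.47, -0.41 and -0.14. Ndufa1 and Ndufb11 are X-linked like Kdm6a. Ndufa1 was 48.5 FPKM in WT and 34.3 in KO females, 85.8 and 84.2 in males, and 78.4 and 71.0 for Ctrl-KI and KI. Its male values were nearly equal (log2 ratio -0.03), the smallest male difference of any member. Ndufb11, on the same chromosome, was 83.8 and 49.5 FPKM in females and 90.2 and 64.6 in males (-0.75 and -0.48), so the 2 X-linked members did not resemble each other in males. Ndufa4, counted by its name with complex I but now known as a cytochrome oxidase subunit, was 212 FPKM in WT and 109 in KO females, 313 and 268 in males, and 267 and 241 for Ctrl-KI and KI, with ratios of -0.95, -0.23 and -0.14.

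Complex II, which is also an enzyme of the citric acid cycle, had medians of -0.91, -0.29 and -0.16 (female, male, KI). Of its 4 genes 0 reached the lowest 25.0% of male ratios, while 7 of 8 genes of complex III did. Sdha, the flavoprotein that oxidises succinate, was 131 FPKM in WT and 83.1 in KO females, 111 and 90.7 in males, and 106 and 93.9 for Ctrl-KI and KI. Sdhb, the iron-sulphur subunit, was 79.1 and 41.1 FPKM in female cells, 92.3 and 86.6 in males, and 88.8 and 82.0 for Ctrl-KI and KI. Sdhb thus showed a female ratio of -0.93 but a male ratio of -0.09, while Sdha had the female ratio nearest to 0 of the 4 (-0.65). The membrane anchors Sdhc and Sdhd were 108 and 139 FPKM in WT females and 52.9 and 74.5 in KO females. Sdhc was the one gene of complex II past 2-fold in females (log2 ratio -1.02), and in males the anchors had ratios of -0.29 and -0.31.

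Complex III had medians of -0.97, -0.41 and -0.19, and 4 of its 8 genes were 2-fold lower in females. Uqcrfs1, the Rieske iron-sulphur protein at its catalytic centre, was 139 FPKM in WT and 73.6 in KO females, 139 and 104 in males, and 135 and 124 for Ctrl-KI and KI. The WT and Ctrl-KI levels of Uqcrfs1 were nearly the same, and the mutant values followed the order of the tables. Uqcr11, a small subunit whose promoter is printed above, was 177 FPKM in WT and 71.4 in KO females, 307 and 235 in males, and 298 and 243 for Ctrl-KI and KI. It was the lowest gene of complex III in the female table (-1.30) and the KI table (-0.29), but in the male table (-0.39) Uqcrc2 was lowest (-0.51). The core proteins Uqcrc1 and Uqcrc2 were 119 and 135 FPKM in WT females and 55.9 and 80.1 in KO females. Uqcrq was 195 and 87.2 FPKM in females and 453 and 321 in males, but 389 and 385 in the KI table (log2 ratio -0.02). Uqcrh, the hinge protein that helps bind cytochrome c1, was the most abundant of the complex in females, at 403 and 225 FPKM.

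Complex V had medians of -0.95, -0.41 and -0.19, with 8 of 17 genes 2-fold lower in females. Atp5b, the catalytic beta subunit, was the most abundant member in all 6 columns (mm9 chromosome 10, 127520363 to 127527444). Its level was 682 FPKM in WT and 351 in KO females, 860 and 696 in males, and 805 and 739 for Ctrl-KI and KI, with ratios of -0.95, -0.30 and -0.12. Its partner in the catalytic head, Atp5a1, the alpha subunit, was 362 and 199 FPKM in females, 464 and 347 in males, and 432 and 392 for Ctrl-KI and KI. The rotor subunits of the head were Atp5c1 (gamma), Atp5d (delta) and Atp5e (epsilon). Atp5d had a female ratio of -1.14, and in the other tables it was merged with its neighbour Midn and is no member. Atp5e, at 170 FPKM in WT and 79.6 in KO females and 265 and 169 in males, had the lowest male ratio of the complex (-0.64) and a mean of -0.86 ± 0.22 (SE, limma, adjusted p 0.130), yet was 245 and 242 FPKM in the KI table.

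The c ring, the membrane rotor, is made from a single mature protein encoded by the paralogues Atp5g1, Atp5g2 and Atp5g3, whose reads may be shared in counting, so their split is uncertain. Atp5g3 was the most abundant of them, at 435 FPKM in WT and 216 in KO females, 733 and 534 in males, and 696 and 585 for Ctrl-KI and KI. Atp5g2 was 267 and 161 FPKM in females, 279 and 233 in males, and 273 and 252 for Ctrl-KI and KI. Atp5g1 was 109 and 45.1 FPKM in females, 179 and 130 in males, and 150 and 125 for Ctrl-KI and KI. In all 3 tables Atp5g2 had the ratio nearest to 0 (-0.72, -0.26 and -0.12) and Atp5g1 the lowest (-1.26, -0.46 and -0.26), though in males Atp5g3 was equal to 2 decimals. The peripheral stalk and other membrane subunits had medians of -1.02, -0.42 and -0.21. Among them Atp5o, which joins the stalk to the head, was 224 and 105 FPKM in females, 357 and 268 in males, and 346 and 284 for Ctrl-KI and KI.

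Atp5s and Atp5sl carry subunit-like symbols but encode accessory proteins (RefSeq calls them Dmac2l and Dmac2) and were among the least abundant members. Atp5s was 6.58 FPKM in WT and 3.46 in KO females, 7.38 and 5.78 in males, and 7.40 and 5.58 for Ctrl-KI and KI. Atp5sl was 13.5 and 8.66 FPKM in females, 6.76 and 6.52 in males, and 6.77 and 5.98 for Ctrl-KI and KI. Without them the lowest value of any member was 5.95 FPKM, for Ndufa11 in female KO. Just outside the threshold of 1 FPKM was a repeat row of Ndufa13 in the male table, at 0.186 and 0.309 FPKM. Loci that merge a member with a neighbour were left out, 2 in the male and 5 in the KI table, and with them added the 3 medians were the same to 2 decimals.

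By the lengths used, the members make short transcripts, and short genes had lower ratios in the female table, where the median was -0.23 under 1 kb and 0.01 from 2 kb up. A gene's length was the median over all its annotated protein-coding transcripts, so it need not be that of the main one (651 bases for Ndufs1, 2675.5 for Atp5g1). The length classes are therefore approximate. The members' median transcript length was 708 bases and 47 of 64 were under 1 kb, against a median of 2138 bases over the genes tested and 2062 of 11049 under 1 kb. Over all genes under 1 kb the median ratios were -0.23 for females, 0.00 for males and -0.05 for KI, nearer to 0 than the members. Genes under 1 kb with a mean of at least 50 FPKM, members left out, had medians of -0.26 (435 genes), -0.10 (423) and -0.10 (386). With genes of like length (10 classes) as the reference the members' medians were -0.72 in females, -0.39 in males and -0.13 for KI. Among the members themselves the female ratio was barely related to length (Pearson -0.09, n = 64) or to the control level that enters it (-0.07), and weakly to GC content (-0.28). The part of transcript length in the female ratios was not tested.

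**Figure D3:**
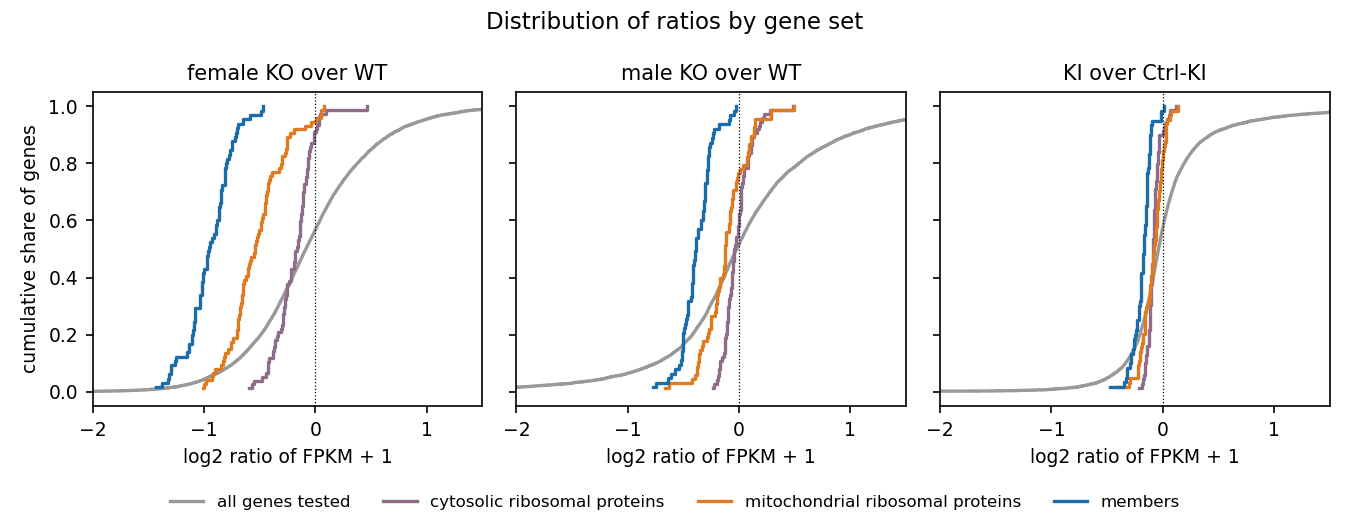
Cumulative share of genes (vertical) against log2 ratio of FPKM + 1 (horizontal) for the members, mitochondrial and cytosolic ribosomal protein genes and all genes tested, in each table. In the female table the members' curve lies left of the others over nearly its whole height. In the male and KI tables the curves lie closer together, and rescaling to TPM over loci with a symbol puts the median of both kinds of ribosomal protein genes at or above 0 there. The horizontal axis is limited to -2 to 1.5, so the tails of all genes are not drawn.

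Other mitochondrial genes showed how far the pattern reached. Cytochrome oxidase, complex IV, had medians of -0.89, -0.27 and -0.16, with 15 of 16, 13 of 15 and 14 of 14 genes below control (10 of 15 and 11 of 14 in the male and KI tables after rescaling to TPM over loci with a symbol). Cyc1, cytochrome c1 of complex III, whose symbol is outside the set, was 207 FPKM in WT and 90.0 in KO females, 195 and 145 in males, and 208 and 177 for Ctrl-KI and KI. Citric acid cycle and pyruvate dehydrogenase genes had medians of -0.86, -0.31 and -0.14, with 16 of 16, 14 of 16 and 16 of 16 below control (15, 12 and 13 of 16 after that rescaling). Fatty acid oxidation genes had medians of -0.59, -0.22 and -0.17. Assembly factors, which build the complexes but stay out of them, had medians nearer to 0 than the members in females and males: -0.44 and -0.24 for complex I and -0.47 and -0.18 for the other complexes. The KI medians were -0.11 for complex I and -0.23 for the other complexes, the second of them farther from 0 than the members' -0.17. Mitochondrial ribosomal protein genes had medians of -0.54, -0.12 and -0.08 and cytosolic ones -0.17, -0.04 and -0.09, and after that rescaling the cytosolic ones were at or above 0 in all tables (0.01, 0.13 and 0.01) and the mitochondrial ones in the male and KI tables (0.04 and 0.02). No difference between a list and the members was tested.

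**Figure D4:**
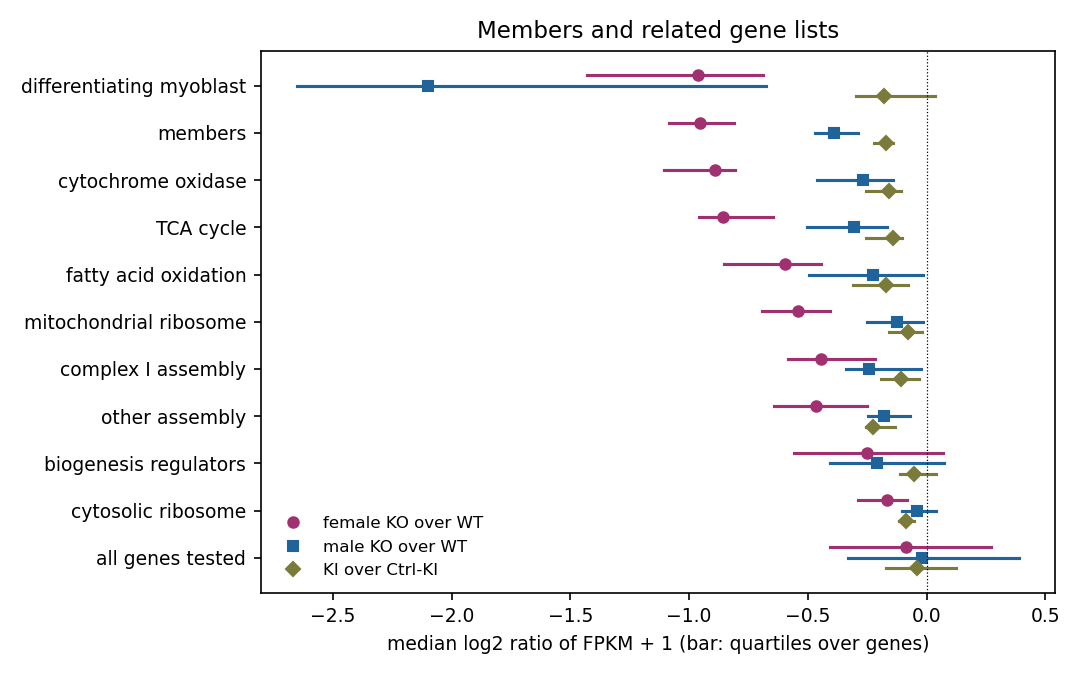
Median log2 ratio of FPKM + 1 (points) and quartiles over genes (bars) of the members and of related lists, in the female KO, male KO and KI tables. The members (-0.95, -0.39 and -0.17) lie beside cytochrome oxidase and the citric acid cycle, and the muscle genes have a male median of -2.10 against a female one of -0.96. Rescaling to TPM over loci with a symbol puts the cytosolic ribosome at or above 0 in all tables, the mitochondrial ribosome in the male and KI tables, and the regulators in the KI table.

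The list of mitochondrial biogenesis regulators was not lower as a group to the same extent. It holds transcription factors and coactivators known to drive these genes, and also genes that act on mitochondrial DNA, such as Tfam, Polrmt and Polg. The list's values are therefore not those of the first kind alone. Its medians were -0.25, -0.21 and -0.05 (0.07 in the KI table after that rescaling), and 11, 9 and 10 of 17 were below control. Nrf1 itself was 10.3 FPKM in WT and 10.9 in KO females, 9.70 and 9.81 in males, and 9.94 and 10.01 for Ctrl-KI and KI. Gabpa was as close, at 21.5 and 21.4 FPKM in females and 19.8 and 20.9 in males. Ppargc1a, the coactivator PGC-1alpha, was 7.07 FPKM in WT and 3.59 in KO females but 1.54 and 2.18 in males, and 2.40 and 1.47 for Ctrl-KI and KI. Esrra was 27.8 and 16.4 FPKM in females and 18.7 and 21.8 in males, so as deposited both genes had ratios of opposite sign in the sexes (Ppargc1a -0.81 and 0.33, Esrra -0.73 and 0.21). Esrrg had a ratio below 0 in both, at 5.93 and 2.44 FPKM in females and 5.51 and 0.274 in males. Members with an NRF1 core in the window had female, male and KI medians of -1.05, -0.29 and -0.16, and those without -0.95, -0.38 and -0.17. For the YY1 core the medians were -0.81, -0.38 and -0.19 with it and -0.97, -0.37 and -0.17 without.

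The muscle genes had the lower median ratio in males, whereas the members as deposited had it in females. Of the list of differentiating myoblast genes, 11 in females and 10 in males passed the filter, with a median of -0.96 in the female and -2.10 in the male table (-0.80 and -1.93 after rescaling to TPM over loci with a symbol). As deposited, 10 of 11 and 9 of 10 were below WT. In each sex 1 listed gene was above it, with a ratio of 0.30 in females and 1.34 in males. Ckm, creatine kinase of muscle, was 147 FPKM in WT and 20.2 in KO females and 110 and 6.82 in males. Myog, which drives the onset of differentiation, was 1305 and 817 FPKM in females and 3424 and 961 in males. The summed FPKM of the list was 7438 in WT and 3221 in KO females, or 43.3%, and 13055 and 3560 in males, or 27.3%. The summed members were at 51.4% and 76.6%, so in both sexes the muscle sum was the lower share of WT. Cox6a2, a muscle isoform of a cytochrome oxidase subunit, was 135 and 46.5 FPKM in females and 166 and 8.83 in males. The contrast rests on 1 library per group and was not tested.

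**Figure D5:**
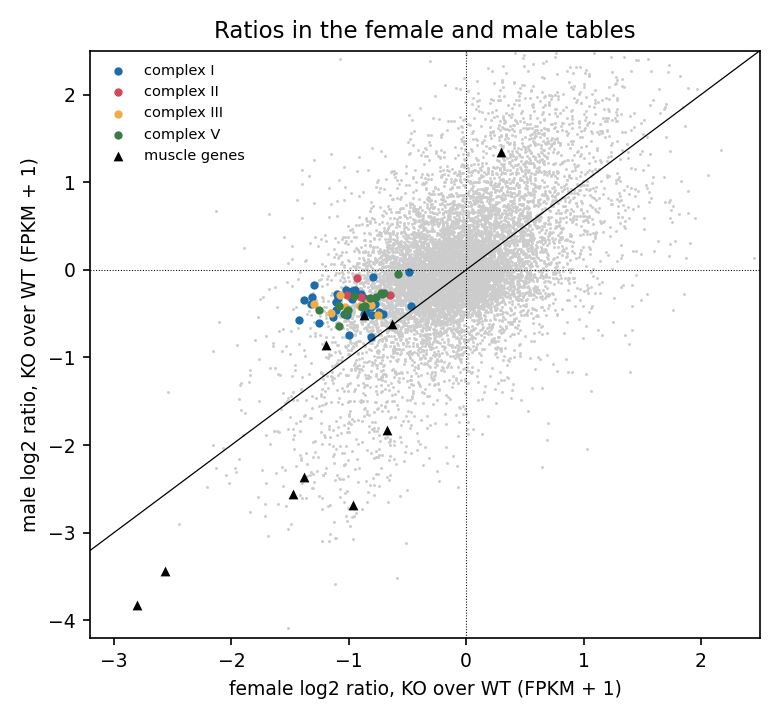
Log2 ratio of FPKM + 1 in the female table (horizontal) and the male table (vertical) for all genes in both (grey), members by complex (colours) and the list of differentiating myoblast genes (black triangles); the diagonal marks equal ratios. All 63 members lie above the diagonal, between -0.03 and -0.77 in males (4 of them at or above 0 after rescaling to TPM over loci with a symbol). The muscle genes run from -3.83 (Ckm) to 1.34 in males. A few grey points outside the axes are not drawn.

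Facts about the libraries that stand beside these results are few. Kdm6a was 20.8 FPKM in WT and 16.9 in KO females, 7.87 and 2.08 in males, and 12.8 and 13.2 for Ctrl-KI and KI, over the whole gene, with overlapping intervals in each pair, so it checks the female label only weakly. Read depth is not known from FPKM. Markers of other cells also differed between the groups: the summed FPKM of 8 fibro-adipogenic markers (connective tissue cells) was 229 and 555 in female WT and KO, 18.9 and 71.8 in males, and 9.83 and 306 for Ctrl-KI and KI, with Pi16 at 0 in female WT and Lum at 0 in male WT, male KO and Ctrl-KI. The 8 endothelial markers summed to 18.1 and 31.2 FPKM in females, 1.35 and 70.2 in males, and 2.28 and 9.35 for Ctrl-KI and KI, with Tie1 at 0 in male WT and Ctrl-KI and Emcn at 0 in Ctrl-KI. The immune markers found summed to 8.54 and 15.4 FPKM in females, 1.40 and 8.35 in males, and 0.983 and 32.5 for Ctrl-KI and KI, with Emr1 at 0 in both WT columns and Ptprc at 0 in female WT. Pericyte and smooth muscle markers, which include Acta2 of differentiating myoblasts, summed to 680 and 344, 2003 and 731, and 2292 and 1854 FPKM. Those that passed the filter had median log2 ratios of 0.14 (female), -0.10 (male) and 1.26 (KI). Of these genes 3 of 5, 1 of 2 and 3 of 4 were above control, so the lower sums do not describe most of them. The 4 proliferation markers summed to 18.4 and 50.2 FPKM in females, 9.09 and 60.4 in males, and 4.41 and 5.68 for Ctrl-KI and KI. The part of such cells and of cycling cells in the members' ratios was not tested. The labelled cell type was present in every column, where the muscle markers summed to between 3221 and 13055 FPKM.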

How the data were processed

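RNA libraries were made from total RNA by the submitters. The submitters' processing notes name edgeR, Cuffdiff, HTSeq 0.6.1, TopHat2 2.0.12, bedtools 2.16.2, Bowtie2 2.2.4 and Cufflinks 2.2.1, with build mm9 and no role or order given. The files that the authors deposited give gene-level FPKM, per the file headers, with lower and upper confidence bounds and a status, in 1 control and 1 mutant column per table. The interval's confidence level and the reference annotation are not given in the sources used here. The KI columns are pooled over 2 libraries, so the replicate test planned for them could not be run.

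Libraries were grouped by their titles. Within a table, log2((FPKM + 1)/(FPKM + 1)) was formed for symbol loci with status OK and at least 1 FPKM in 1 column, and merged symbols were kept apart; the pseudocount understates differences of low genes. Calls were 2-fold differences and, for both sexes, an adjusted p of 0.05 over all genes from limma 3.58.1 (R 4.3.3, Benjamini-Hochberg). The fit was also run on simulated data with changes far larger than those of the members, so its power at their size is not known. Counting was not stated to use strand, so overlapping or antisense genes and paralogues are uncertain. Transcript lengths and GC content came from GENCODE (GRCm38, matched by symbol) and promoters from RefSeq (GRCm38.p6); locus starts in mm9 are printed 1 higher than deposited, since they count from 0. The plan was to name each complex's highest and lowest members, 2-fold members, core and isoform subunits, and the extremes of each list. Not all of these are named, and some 2-fold members are only counted. The regulators and cores named were picked after their values were seen. Members and lists were chosen with earlier results of these data known. One member is counted in the totals but its own values are not reported here. Other settings tried were a pseudocount of 0.1 or 5 FPKM, a filter of 5 FPKM or none, other scalings, a length reference, merged loci, every status, and, for limma, no trend or the KI ratio added. Tables were handled with python 3.11.15 and pandas 2.3.3.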

Additional observations from a re-analysis of the deposited data

How the results depend on the processing

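No paired analysis was possible because no replicate numbers match samples: the KI table pools its replicates into 1 column per group and the other groups have 1 library each. The joint fit works on ratios within a sex. Nor was any replicate left out: a joint fit without 1 sex has no residual degree of freedom.

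Under other settings 109 values kept their direction and stayed within 0.2 on the log2 scale (medians) or 1.5 times (counts), and 11 did not. The female count of 27 members at least 2-fold lower was 16 with median-centred ratios, 9 with TPM over all loci or over loci with a symbol, 8 with the length reference and 0 where non-overlapping deposited intervals were asked for. The female median was -0.72 with the length reference. TPM over all loci, which counts loci without a symbol, moved the median of all genes to -0.70 in the male and -0.77 in the KI table. There the members' medians were -1.16 and -0.99 with 57 and 28 members 2-fold lower, and relative to all genes -0.46 and -0.23. With TPM over loci with a symbol the medians were -0.78, -0.22 and -0.07 (female, male, KI), and relative to all genes -0.87, -0.38 and -0.13.

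With limma, 0 members passed an adjusted 0.05 in either direction in every setting run, the smallest adjusted p of a member ranging from 0.106 to 0.661. Over all genes 0 were called lower and 1 higher, but 95 and 51 with at least 5 FPKM and 92 and 51 with TPM over all loci. At an unadjusted threshold, added after seeing the data with the ribosomal-protein centring and the removal of small RNA genes, 46 were lower. That number was 13 with TPM over loci with a symbol, 7 with no filter on level and 0 with TPM over all loci. The ribosomal-protein centring left 65 of 65, 62 of 63 and 57 of 60 members below control. Depth behind the FPKM is unknown, and the deposited intervals are wider than most differences described.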

Other observations

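Other mitochondrial proteins, picked here after their values were seen, add detail. Values are FPKM in control and mutant. Usmg5, a small protein of the ATP synthase dimer, was 251 and 129 in the female table. Ndufaf3, an assembly factor of complex I, was 11.1 and 4.28 in females and 17.9 and 9.72 in males, lower than most assembly factors in both. Sdhaf1, which helps to mature complex II, was 9.71 and 4.20 in females. In fatty acid oxidation, Etfb, the electron transfer flavoprotein subunit, was 43.2 and 14.9 and Acadvl, the very long chain dehydrogenase, 60.1 and 25.1 in females. Acadl, the long chain dehydrogenase, was 175 and 92.1 in males, and 169 and 94.6 for Ctrl-KI and KI. Cpt1a, which brings fatty acids into the mitochondrion, went the other way in males, at 10.2 and 22.5. These are single values per group with no test.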
